A study of Mus musculus with 26 samples.

Results

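The cells described here are single mouse retinal cells that held transcript of Mki67, which encodes the nuclear protein Ki-67 of dividing cells, compared between cells given Cre to remove Notch1 and cells given none. The cells were chosen by their Mki67 signal: a cell was kept when its Mki67 probe set lay at or above the 90th percentile of its own array, leaving out the array's control probe sets. The rule kept 15 of the 26 cells of the series: 11 of 13 control cells (WT cells 1 to 6, 8 and 10 to 13) and 4 of 13 cells given Cre (N1-CKO cells 1, 2, 3 and 11). Because Mki67 chose the cells, its values describe them and support no difference between the groups.

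All cells came from mice homozygous for a floxed Notch1 allele (Notch1 fl/fl) on a C57BL/6 background, so the controls carry that allele too. Retinas of living pups were electroporated on postnatal day 0 and harvested on postnatal day 3. WT retinas received CAG:GFP, and N1-CKO retinas received CAG:Cre together with CALNL-GFP, a GFP reporter that Cre switches on. CAG is a broadly active promoter, so neither plasmid singles out a cell type. Cells that glowed with GFP were collected by hand after dissociation, and each was put on an Affymetrix array of its own. The labels name sibling pups but give no cell's animal, litter or picking session. The cells therefore cannot be counted as independent replicates, each group stands as 1 sample, and no test between the groups was made. SDs below describe the spread between cells.

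Notch1 is a cell-surface receptor that, once bound by a ligand on a neighbouring cell, is cut to release an intracellular domain. That domain joins the DNA-binding protein RBPJ and switches on repressors of the Hes and Hey families, which hold back proneural factors. In the newborn retina dividing progenitors depend on this signal to stay undifferentiated, and they give rise to rods, bipolar cells, late amacrine cells and Müller glia. Loss of Notch1 is known to send progenitors out of the cell cycle and toward photoreceptor fates. Among Mki67-positive cells, N1-CKO cells can be read against WT cells that held the same transcript.

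The promoters of the Notch effectors Hes5 and Hey2, which hold the core of the RBPJ motif, and of Arhgap11a, the mitotic gene with the lowest difference in N1-CKO cells, are shown because their transcripts are described below. Each line runs 5′ to 3′ on the gene's own strand, from 250 bases before to 20 bases after the RefSeq start, at chr4:154960673-154960942 (plus strand), chr10:30842764-30843033 (minus strand) and chr2:113848642-113848911 (minus strand) of GRCm38.p6. Capitals mark TGGGAA, the core of the RBPJ motif, on either strand in Hes5 and Hey2, and TTTGAA, the core of the cell cycle homology region, in Arhgap11a.
Hes5: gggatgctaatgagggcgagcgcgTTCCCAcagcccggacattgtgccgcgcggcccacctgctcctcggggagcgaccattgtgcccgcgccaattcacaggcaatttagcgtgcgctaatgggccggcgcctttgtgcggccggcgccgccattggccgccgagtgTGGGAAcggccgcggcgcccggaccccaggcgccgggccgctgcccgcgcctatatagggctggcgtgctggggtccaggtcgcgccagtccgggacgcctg
Hey2: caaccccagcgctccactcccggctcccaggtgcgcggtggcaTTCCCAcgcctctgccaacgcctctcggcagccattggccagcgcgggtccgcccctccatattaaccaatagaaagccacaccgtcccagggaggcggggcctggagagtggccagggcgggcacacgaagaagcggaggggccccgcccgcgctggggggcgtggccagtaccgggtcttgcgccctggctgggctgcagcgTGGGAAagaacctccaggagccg
Arhgap11a: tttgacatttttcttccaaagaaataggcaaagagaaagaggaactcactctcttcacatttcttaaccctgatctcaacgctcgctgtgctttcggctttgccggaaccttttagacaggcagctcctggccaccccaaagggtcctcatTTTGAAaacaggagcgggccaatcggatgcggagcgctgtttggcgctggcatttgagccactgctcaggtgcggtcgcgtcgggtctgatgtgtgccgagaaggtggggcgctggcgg

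Over windows of 300 bases (250 before and 50 after the start), searched on both strands, TGGGAA was present for 4 of the 10 listed Notch receptor and effector genes that had a window (40%), against 28.3% of all 27025 genes in the table. TTTGAA was present for 23 of 29 listed G2/M and mitosis genes (79.3%), against 20.2% of all genes. The E-box CAGCTG, of a kind that proneural factors bind, was present in 18.3% of all genes and in 5 of 13 listed neuronal genes. Over all genes that passed a log2 difference of 3 between the groups (defined below), those higher in N1-CKO cells held TGGGAA in 30.1%, TTTGAA in 14.2% and CAGCTG in 18.8%. Those lower held them in 27.9%, 19.5% and 12.8%. The genes compared between the groups, from which both were drawn, held them in 25.3%, 13.8% and 16.2%. A match is a match of letters and not a measured binding site.

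The deposited values are MAS5 signals, an intensity on a linear scale. Signals below 25 were raised to 25 (4.64 on the log2 scale, called the floor below), and all levels below are log2 signals of 1 probe set per gene, the brightest over the 26 cells. Levels of different genes come from different probe sets and are not set against each other. A gene was called detected in a cell at or above the 90th percentile of that cell's array, which makes 4504 detected probe sets in each cell whatever its content. A difference is the mean log2 signal of the 4 N1-CKO cells minus that of the 11 WT cells. It mixes how many cells held a transcript with how bright it was in them, and in a single amplified cell a transcript near the floor may have been lost in amplification. A gene was counted as higher or lower past 3 when its difference reached 3 (8-fold) and its share of cells with detection differed in the same direction. Of 5416 genes detected in at least 3 of the 15 cells, 6.19% were higher past 3 in N1-CKO and 4.8% lower. Precision is limited by how few arrays there are.

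Mki67 was detected in 84.6% of WT cells (54.6 to 98.1%) and 30.8% of N1-CKO cells (9.09 to 61.4%), with exact Clopper-Pearson 95% limits that cover counting error alone. Among the cells kept, the Mki67 level was 14.73, 14.11, 14.90 and 14.53 in N1-CKO cells 1, 2, 3 and 11. In WT cells it ran from 12.20 through a median of 13.70 to 15.29, so the 4 N1-CKO cells lay inside the WT range. By percentile, WT cells 6 and 12 were the kept cells nearest the threshold, at 94.64 and 94.65 of their arrays. Their levels were 12.20 and 12.26, against thresholds of 11.14 and 9.85. Of the cells left out, N1-CKO cell 10 was nearest at percentile 82.95, with a level of 9.23 against its array's threshold of 9.64. N1-CKO cell 13 followed at percentile 80.13, but its level of 5.91 lay far below its threshold of 10.35. WT cell 9 had a level of 7.42 against a threshold of 8.69.

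**Figure D1:**
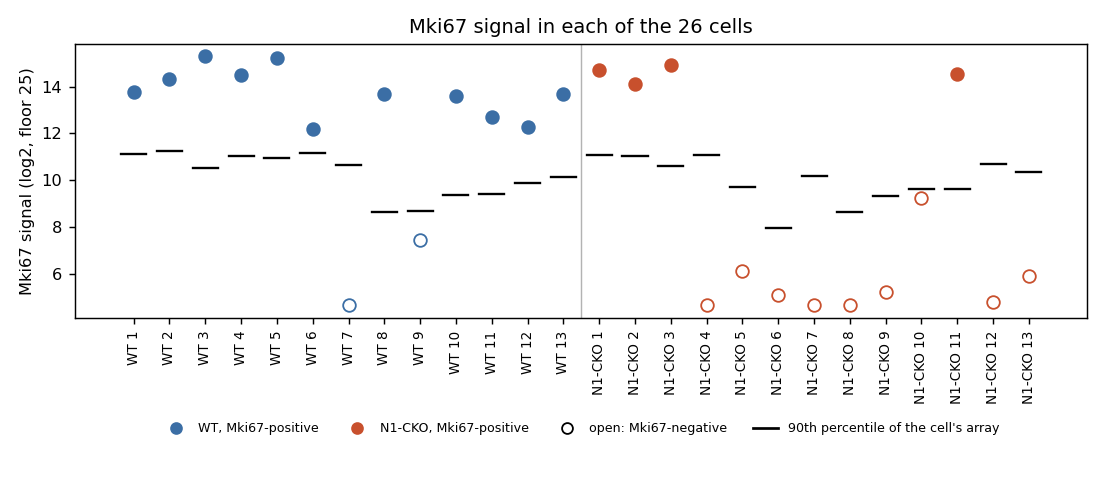
Log2 Mki67 signal (floor 25) of each of the 26 cells, WT in blue and N1-CKO in orange, with a bar at the 90th percentile of that cell's array. Filled points are the 15 cells kept; the 4 N1-CKO cells lie between 14.11 and 14.90, and every open point lies below its bar.

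Some features of the arrays bear on every result below. The array control for 18S ribosomal RNA split the 15 arrays into a high set (WT cells 8, 10, 11 and 12 and N1-CKO cells 3 and 11) and a low set (WT cells 1 to 6 and 13 and N1-CKO cells 1 and 2), so each difference can also be read within a set. Xist, the transcript that silences an X chromosome in female cells, was picked out after its values were known. It lay at 13.11 to 15.95 and above threshold in each of the 11 WT cells. It was at 14.24 and 14.34 in N1-CKO cells 1 and 2, and at 5.59 and 4.64 in N1-CKO cells 3 and 11. The Y-linked genes Eif2s3y, Kdm5d and Uty were detected in 0 of the 15 cells. Within the high 18S set, genotype and Xist state cannot be told apart, and their part in the results was not tested. For Gapdh, the 3′ control probe set was 1.40 to 3.24 times as bright as the 5′ one in WT cells and 1.46 to 2.72 times in N1-CKO cells, a sign of RNA quality. For Actb the same ratio was 1.46 to 54.79 (median 3.33) in WT cells, with WT cell 2 highest, and 1.43 to 12.75 in N1-CKO cells. Markers of endothelial cells and pericytes, microglia, astrocytes, pigment epithelium and blood showed no gene detected in 2 or more of the 15 cells. Single markers were detected in WT cell 1 (endothelial or pericyte), WT cell 10 (microglial), WT cell 13 and N1-CKO cell 1 (astrocyte, 1 each). The labelled tissue was borne out by retinal progenitor genes, of which 6 to 15 were detected in each WT cell and 9 to 13 in each N1-CKO cell, out of 19 measured.

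Notch1 itself, the targeted gene, was at 12.96, 12.42, 13.25 and 4.64 in N1-CKO cells 1, 2, 3 and 11. In WT cells its lowest, median and highest levels were 7.02, 13.30 and 14.55. It was detected in 3 of 4 N1-CKO and 9 of 11 WT cells, with a difference of −1.66 that was smaller than the SDs of 4.13 and 2.27. N1-CKO cell 11 alone stood at the floor. The sources used here do not say which part of the gene Cre removes, so transcript at this probe set neither shows nor denies recombination in a cell. Over all 26 cells Notch1 was detected in 10 of 13 WT and 8 of 13 N1-CKO cells.

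Notch receptors and effectors, taken as a list, had a lower median in Mki67-positive N1-CKO cells. Of 15 Notch receptor and effector genes detected in at least 2 of the 15 cells, 14 had a lower mean in N1-CKO and 1, Heyl, a higher one, at the probe set used. Rbpj is among the 14, though other probe sets of it were opposite (below). Over all 5416 genes 47.7% had a lower and 52.3% a higher mean. The median difference was −1.82, against 0.10 over all genes, and 2 of the 15 (13.3%) were lower past 3, where 4.8% of all genes tested were. Over all 26 cells, Mki67-positive or not, the same genes gave −1.81. They numbered 12 of 15 lower on the high 18S arrays (median −1.13) and 15 of 15 on the low ones (−2.95). In the cells with Xist detected 12 of 15 were lower (−1.74). With N1-CKO cell 1, 2, 3 or 11 left out, 11, 14, 15 and 12 of 15 were lower. Per cell, 3, 6, 7 and 3 of the 18 measured members were detected in N1-CKO cells 1, 2, 3 and 11, against 4 to 12 (median 7) in WT cells, so the cells overlapped.

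Among the repressors that carry out the signal, Hey1 stood at 4.94, 4.64, 4.64 and 4.64 in N1-CKO cells 1, 2, 3 and 11. In WT cells it ran from 4.64 through 10.19 to 13.06 and was detected in 6 of 11. All 4 N1-CKO cells were at or near the floor, and the difference of −4.64 exceeded both SDs (3.14 in WT, 0.15 in N1-CKO). Hes1, the best known of these repressors, was at 12.06, 4.64, 7.68 and 4.64, against 4.64 to 12.74 (median 9.63) in WT, a difference of −2.40 within the SDs of 3.51 and 2.62. Only N1-CKO cell 1 held Hes1 above its threshold.

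Hes5 did not go the same way in every cell. It was at 11.54, 12.37, 10.03 and 4.64 in N1-CKO cells 1, 2, 3 and 11, against 7.42 to 14.66 (median 12.47) in WT. Detected in 2 of 4 and 8 of 11 cells, it had a difference of −1.82 inside the SDs of 3.47 and 2.73. Hey2 was detected in 0 of 4 and 3 of 11 cells (difference −2.29), so that of the genes whose promoters are printed above with the RBPJ core, Hes5 was still present in part of the N1-CKO cells. Heyl was at 4.64, 4.64, 13.36 and 12.47, high in the cells of the high 18S set and at the floor in the other N1-CKO cells. Its difference of 0.05 hides 6.47 on high and −5.39 on low 18S arrays.

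The Id genes, which encode partners that keep basic helix-loop-helix factors from binding DNA, were lower as a group of 4. Id1 was at 4.64, 11.39, 12.58 and 4.64 in the N1-CKO cells and at 9.54 to 14.56 (median 12.58) in WT. Of WT cells 10 of 11 held it and of N1-CKO cells 2 of 4, and its difference of −3.99 was larger than the WT SD of 1.52 but not the N1-CKO SD of 4.26. Id3 was at 7.48, 9.70, 12.06 and 9.62, against 4.64 to 15.13 (median 13.70), a difference of −2.78. Id2 and Id4 were detected in 0 of 4 N1-CKO cells and in 2 of 11 WT cells each. Dtx1, a Notch-binding ubiquitin ligase, had a difference of −2.59, and the feedback inhibitor Nrarp one of −0.21. Notch2 had −1.09 and Dtx4 −0.27. Rbpj had −0.76 at its brightest probe set, but 2 other probe sets of the gene gave 2.18 and 4.50, the latter detected in 4 of 4 N1-CKO and 2 of 11 WT cells, so no direction is given for it.

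Ligands and proneural factors showed no common direction: 3 of 7 were higher and 4 lower, with a median of −0.21. That median was −1.88 on high 18S arrays (3 of 7 higher) and 0.96 on low ones (7 of 7 higher). In the cells with Xist detected it was 1.00 with 7 of 7 higher, and without N1-CKO cell 11 it was 1.19. Neurod1, active in newly formed photoreceptors and amacrine cells, lay above threshold in 4 of 4 N1-CKO and 7 of 11 WT cells, with a difference of 2.81. Hes6, which counteracts Hes1, was at 13.90, 13.51, 14.27 and 14.09, near the WT median of 13.80, with 3 cells above it and WT cells reaching down to 6.94. The ligand Dll1 was detected in 0 of 4 and 3 of 11 cells, and the sugar transferase Mfng in 1 of 4 and 4 of 11.

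Targets of FGF and ERK signalling, a growth signal that progenitors also use, were 6 lower and 3 higher, with a median of −0.97. Without N1-CKO cell 11 that median was −0.05 with 5 lower and 4 higher, and without N1-CKO cell 2 it was −1.71. Etv5, a transcription factor induced by FGF, was at 4.64, 4.64, 9.55 and 4.64 in N1-CKO cells 1, 2, 3 and 11. In WT cells it ran from 4.64 through 11.65 to 14.71 and was detected in 8 of 11. No N1-CKO cell reached its threshold (0 of 4), and the difference of −4.63 was larger than the SDs of 2.46 and 3.66. The inhibitor Spry1 (−3.10) and the factor Etv4 (−2.12) were also detected in 0 of 4 N1-CKO cells. The ERK phosphatase Dusp4 went the other way at 3.15, but was −0.20 on high 18S arrays, where N1-CKO cell 11 had 5.40.

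**Figure D2:**
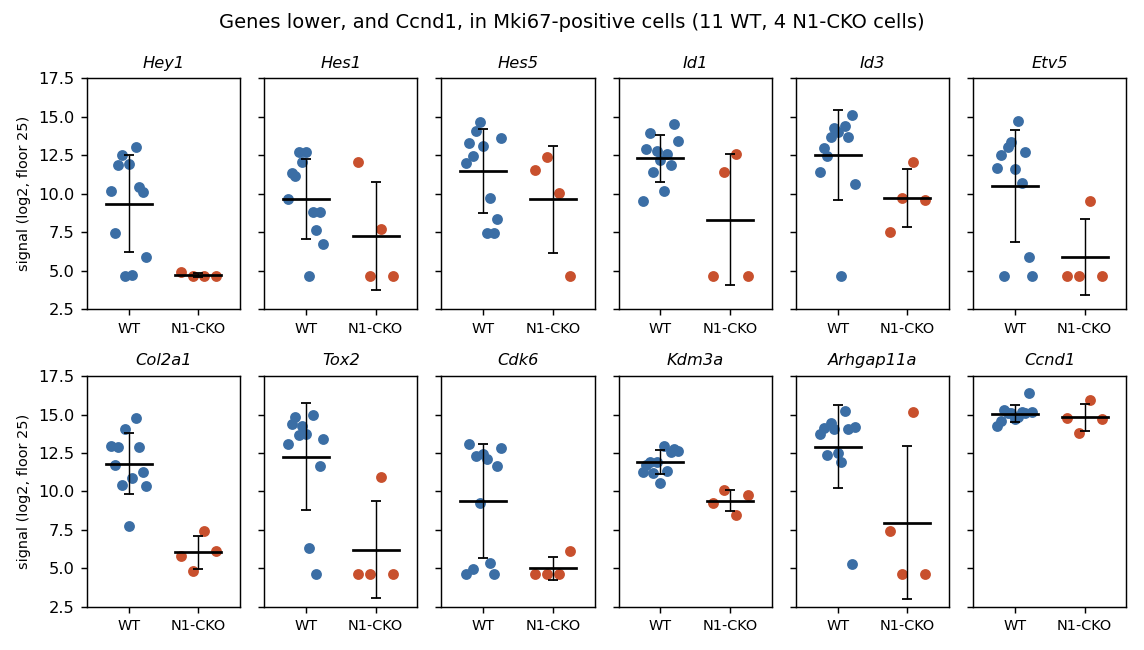
Log2 signal (floor 25) of 11 genes lower in N1-CKO and of Ccnd1, with 1 point per Mki67-positive cell, 11 WT (blue) and 4 N1-CKO (orange); lines are means and bars 1 SD over cells. The N1-CKO points of Hey1 and Cdk6 sit at or near the floor of 4.64, those of Hes5 and Id1 spread from the floor upward, and Ccnd1 is alike in both groups.

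Mitotic transcripts were mostly lower in N1-CKO cells also among cells chosen for Mki67. Of 34 genes of G2/M and mitosis, 28 had a lower mean in Mki67-positive N1-CKO cells and 6 a higher one, with a median difference of −2.00. Past 3 were 5 of them (14.7%), all lower, where 4.8% of all genes tested were lower past 3. Over all 26 cells that median was −3.21, with 34 of 34 lower. Per cell, 16, 13, 20 and 7 of 35 measured members were detected in N1-CKO cells 1, 2, 3 and 11. WT cells held 5 to 33 (median 24), and the 9 Mki67-negative N1-CKO cells 0 to 4 (median 3). The 4 N1-CKO cells thus lay below the WT median and inside the WT range, and above the Mki67-negative N1-CKO cells. Mki67-negative WT cells 7 and 9 held 4 and 8, so N1-CKO cell 11 lay below WT cell 9. Mki67 marks dividing cells and chose the cells kept, so their order against Mki67-negative cells is no separate result. The size of the list's median rested on N1-CKO cell 11, without which it was −0.68 with 24 of 34 lower. Within the 18S sets the median was −0.31 (19 of 34 lower) on high and −1.49 (29 of 34 lower) on low arrays.

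Arhgap11a, a regulator of cell division whose promoter is printed above, was at 7.43, 4.64, 15.16 and 4.64 in N1-CKO cells 1, 2, 3 and 11. WT cells ran from 5.31 through 14.07 to 15.21, and 10 of 11 held it above threshold. Only N1-CKO cell 3 held it above threshold, N1-CKO cell 1 lay inside the WT range through WT cell 12 at 5.31, and the difference of −4.93 did not exceed the N1-CKO SD of 4.97. The B-type cyclin Ccnb2 (−3.96) and the centromeric histone Cenpa (−3.42) were detected in 0 of 4 N1-CKO cells, against 6 and 8 of 11 WT cells. The spindle protein Nusap1 had −3.80, from 4.64 in N1-CKO cells 1 and 2 and 12.48 and 11.72 in cells 3 and 11, and turned to 1.32 on high 18S arrays. Top2a (0.38), Ube2c (0.55) and Racgap1 (0.90), mitotic genes chosen after their values were seen, were detected in 4 of 4 N1-CKO cells and in 9 or 10 of 11 WT cells.

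Genes of G1/S and DNA replication divided. Of 23, 17 were lower and 6 higher, with a median of −1.40 (−2.30 over all 26 cells). Past 3, 7 were lower (30.4%, against 4.8% of all genes tested) and 2 higher (8.70%, against 6.19%). Rcc1, a chromatin-bound exchange factor, and Uhrf1, which guides maintenance DNA methylation, were detected in 0 of 4 N1-CKO and 7 of 11 WT cells each, with differences of −4.41 and −4.33 that exceeded both SDs. Slbp, which binds histone mRNA, was at 4.64 in N1-CKO cells 1, 2 and 11 and at 13.13 in cell 3. Mcm2, a subunit of the replicative helicase, was instead at 11.71, 12.17, 11.28 and 13.98 in the N1-CKO cells, against 4.64 to 14.08 (median 4.74) in WT. All N1-CKO cells (4 of 4) and 4 of 11 WT cells held it, and its difference of 4.49 exceeded the SDs of 1.19 and 3.98. Of the other helicase subunits, chosen after their values were seen, Mcm7 had a difference of 3.81, Mcm3 −3.52 and Mcm6 −2.73, so the subunits did not move together. The list's median was −0.69 without N1-CKO cell 1 and −2.34 without N1-CKO cell 2. Per cell, 6, 12, 13 and 7 of 28 measured members were detected in N1-CKO cells 1, 2, 3 and 11, and 5 to 21 (median 13) in WT cells. The Mki67-negative N1-CKO cells held 1 to 15 (median 3), with N1-CKO cell 4 at 15, so a cell without Mki67 could hold many of them.

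Cyclin D1 marked both groups. Ccnd1, which drives G1 progression and is abundant in retinal progenitors, was at 14.80, 13.80, 15.92 and 14.74 in the N1-CKO cells and at 14.24 to 16.39 (median 15.10) in WT. All 15 cells held it, with a difference of −0.25, inside the SDs of 0.87 and 0.54, whereas over all 26 cells its difference was −3.10. Cdk4, its kinase partner, was detected in all 15 cells with 0.42. Cdk6, the other D-cyclin kinase, was at 4.64, 4.64, 4.64 and 6.14 in N1-CKO cells and at 4.64 to 13.12 (median 11.68) in WT, detected in 0 of 4 and 6 of 11 cells. Its difference of −4.37 exceeded both SDs (0.75 and 3.70). Ccnd3 (−2.14) and Cdk2 (−2.05) were detected in 0 of 4 and 4 of 11 cells each. Rb1 had −0.35, and Mycn 1.23 with other probe sets of the gene opposite.

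Inhibitors of cycling and other exit genes were 7 higher and 3 lower of 10, with a median of 0.57. In either direction 0 of 10 passed 3, where 6.19% of all genes tested were higher past 3 and 4.8% lower, so a list this short says little. The median was −0.26 with 4 of 10 higher on low 18S arrays, 0.46 with 5 of 10 higher on high ones, and 0.33 without N1-CKO cell 3, so no direction is given for the list. Cdkn1b, encoding the CDK inhibitor p27, was detected in 4 of 4 and 9 of 11 cells with −0.54. Cdkn1c, encoding p57, was detected in 0 of 4 and 5 of 11 cells with −1.96. The antiproliferative Btg2 was at 13.33, 11.79, 13.64 and 10.18, detected in 4 of 4 and 6 of 11 cells (1.21), and Btg1 had 0.39. Gadd45g had 1.61, Mxd4 1.09, Cdkn2d 0.71, Ccng2 0.43 and Cdkn2c −0.53, each smaller than the SDs. Mxd3 had 0.76, with other probe sets of the gene opposite.

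Neuronal transcripts were present in the N1-CKO cells that held Mki67. Of 17 general neuronal and synaptic genes, 15 had a higher mean in N1-CKO cells, and 7 (41.2%) were higher past 3, where 6.19% of all genes tested were. The list's median difference was 2.77. It was 1.32 over all 26 cells, 2.97 on high and 2.01 on low 18S arrays, and 2.42 to 3.62 with each N1-CKO cell left out in turn. With the probe sets of a gene averaged it was 1.40. N1-CKO cells 1, 2, 3 and 11 held 8, 15, 12 and 11 of 21 measured members. WT Mki67-positive cells held 2 to 8 (median 5) and Mki67-negative N1-CKO cells 5 to 11 (median 8). The Mki67-negative WT cells 7 and 9 held 12 and 1, so such counts also occurred in a WT cell. N1-CKO cells 2, 3 and 11 thus stood above every Mki67-positive WT cell and cell 1 stood level with the highest. The list was drawn up with earlier results of these cells known.

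Syp, encoding the synaptic vesicle protein synaptophysin, was at 14.05, 12.92, 11.31 and 14.53 in N1-CKO cells 1, 2, 3 and 11. WT cells ran from 4.64 through 5.51 to 13.89, with 2 of 11 above threshold. The N1-CKO cells were all high, 2 WT cells reached them, and the difference of 6.32 exceeded the SDs of 1.43 and 3.38. Nlgn2, an adhesion protein of inhibitory synapses, was at 13.31, 12.87, 13.40 and 12.25, against 4.64 to 12.77 (median 5.33), a difference of 5.85. Tubb3, the neuronal tubulin of newborn neurons, was at 12.87, 14.86, 11.69 and 14.86, against 4.64 to 15.64 (median 5.49), a difference of 5.32. Tubb3 was detected in 4 of 4 N1-CKO cells and 4 of 11 WT cells. Aplp1, a relative of the amyloid precursor protein, was high in N1-CKO cells 1, 2 and 3 (12.77 to 13.32) and at 8.04 in cell 11, a difference of 5.43.

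**Figure D3:**
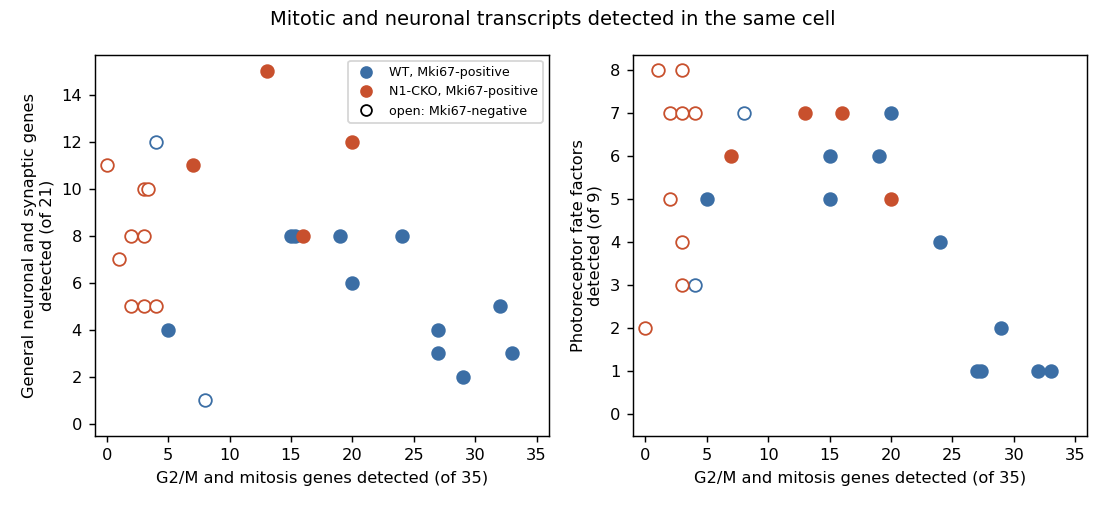
Each point is 1 of the 26 cells, WT in blue and N1-CKO in orange, filled where Mki67-positive; the horizontal axes count G2/M and mitosis genes detected, the vertical axes count general neuronal genes (left) and photoreceptor fate factors (right). N1-CKO cells 2, 3 and 11 combine 7 to 20 mitotic genes with 11 to 15 neuronal ones, while no filled WT point passes 8 neuronal genes; on the right the groups overlap.

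Photoreceptor fate factors were higher as well, but WT cells spanned the same levels. All 8 detected members had a higher mean in N1-CKO cells. Their median difference was 2.29 (2.39 over all 26 cells), and 6 of 8 on high 18S arrays (median 1.09). Crx, the homeodomain factor of photoreceptor precursors, was at 13.51, 13.53, 13.98 and 13.05 in the N1-CKO cells and at 4.64 to 15.62 (median 10.92) in WT. Otx2, which acts upstream of Crx, was at 13.48, 12.57, 13.84 and 12.27, against 4.64 to 15.91 (median 11.00). Neurod1 was at 14.55, 14.02, 13.22 and 13.89, against 4.64 to 15.90 (median 12.02). Each of these was detected in every N1-CKO cell and in 5, 6 and 7 of 11 WT cells. The highest WT cells exceeded every N1-CKO cell, and the differences of 3.15, 2.90 and 2.81 were smaller than the WT SDs of 3.75, 4.23 and 3.57. Mef2d was detected in 2 of 4 and 4 of 11 cells (2.39). Nrl, the rod-determining factor and likewise named for its values, lay above threshold in 4 of 4 and 8 of 11 cells (2.18), while over all 26 cells its difference was −0.34.

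The counts of mitotic genes and of these factors can be read side by side in single cells. The 11 WT cells held 33, 32, 29, 27, 27, 24, 20, 19, 15, 15 and 5 mitotic genes, and in the same order 1, 1, 2, 1, 1, 4, 7, 6, 5, 6 and 5 of the 9 measured photoreceptor factors. N1-CKO cells 1, 2, 3 and 11 held 7, 7, 5 and 6 of these factors, within the WT range of 1 to 7. In photoreceptor factors the groups overlapped, and in neuronal genes they touched at 8.

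Products of mature rods and cones were less even. Of 8 detected, 6 were higher, with a median of 1.83. That median was 3.32 with 8 of 8 higher on low 18S arrays and −0.25 with 2 of 8 higher on high ones. Without N1-CKO cell 2 it was 0.65, and without N1-CKO cell 11 2.65 with 8 of 8 higher. Sag, rod arrestin, was at 12.95, 12.89, 11.33 and 4.64 in N1-CKO cells 1, 2, 3 and 11 and was detected in 2 of 11 WT cells (3.25). Gnb3, a cone and bipolar transducin subunit, had 2.82, the rod phosphodiesterase subunit Pde6g 2.90 and the outer segment protein Rom1 2.26, none larger than both SDs. N1-CKO cell 11 held 1 member where the other N1-CKO cells held 5 to 7.

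Genes of other retinal neurons were detected in some of the N1-CKO cells. Slc6a9, the glycine transporter of amacrine cells, was at 12.10, 12.17, 7.16 and 12.79, against 4.64 to 8.15 in WT. It was detected in 3 of 4 and 0 of 11 cells, at least 1.68-fold higher, where a bound sets the N1-CKO mean against the WT arrays' mean detection threshold. The amacrine factors Tfap2b and Barhl2 and the GABA enzyme Gad2 were at or near the floor in N1-CKO cell 1. Tfap2b was at 12.02, 11.90 and 14.40 in N1-CKO cells 2, 3 and 11, Barhl2 at 13.12, 10.48 and 6.31, and Gad2 at 12.64, 4.64 and 12.35. Their differences of 2.73, 1.43 and 2.02 lay inside the SDs. The amacrine and horizontal list had a median of 1.72 (5 of 6 higher), and N1-CKO cells 1, 2, 3 and 11 held 1, 5, 2 and 6 of 20 measured members. Without N1-CKO cell 2 that median was 0.39. Stmn2, Ebf3 and Nefl of the ganglion cell list had 3.17, 2.63 and 1.57, and Nefm −0.22, with a list median of 1.57 that was 0.89 without N1-CKO cell 11. Of the bipolar list Irx5, Pcp2 and Prdm8 had −1.95, −1.74 and −1.62 and Irx6 1.66, with a list median of −1.62 that was −1.02 without N1-CKO cell 2.

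Progenitor genes as a list stood near the level of all genes. Of 17, 10 were lower and 7 higher, with a median of −0.40, against −1.17 over all 26 cells. The median was 0.81 in the cells with Xist detected, so its sign is not settled. Meis1, a homeodomain factor of progenitors, was at 12.72, 13.38, 12.36 and 13.12 in N1-CKO cells, against 4.64 to 13.06 (median 6.83) in WT. It was detected in 4 of 4 and 4 of 11 cells, and its difference of 4.11 exceeded both SDs (0.45 and 3.12). Meis2 had 2.83 and Six3, an eye field factor, 2.41, while Zfp36l2, which destabilises mRNA, had −2.90. Müller glial genes were 7 lower and 5 higher of 12, with a median of −0.47 that turned to 0.42 on high 18S arrays and 0.12 without N1-CKO cell 11. Of these, Nfia, a gliogenic factor, was detected in 0 of 4 and 3 of 11 cells (−3.69). The receptors Gpr37 and Kdr and the factor Nfib had −2.84, −2.73 and −2.09.

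**Figure D4:**
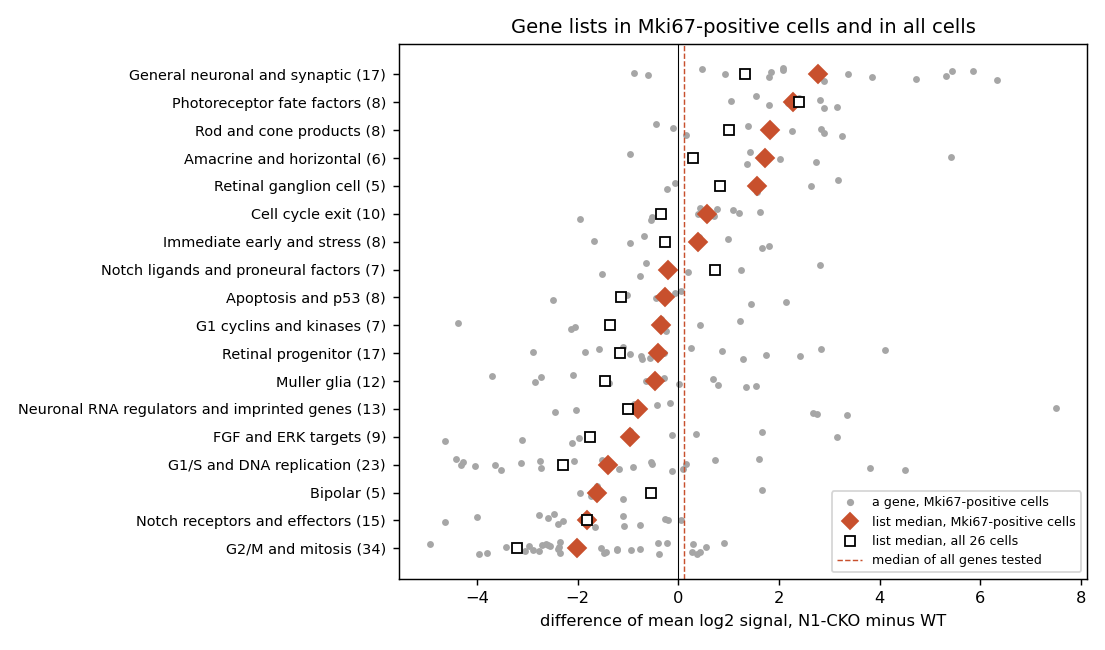
Difference of mean log2 signal, N1-CKO minus WT, for the members (dots, number in brackets) of 18 gene lists, with the list median in the 15 Mki67-positive cells (orange) and in all 26 cells (open squares). The dashed line is the median of all genes tested, 0.10; neuronal genes lie highest at 2.77, and G2/M and Notch effector genes lowest at −2.00 and −1.82.

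Across all genes, 335 of 5416 (6.19%) were higher past 3 in Mki67-positive N1-CKO cells and 260 (4.8%) lower. Of the 335, 309 had the same sign in both 18S sets and 118 passed 3 in both. Of the 260, these counts were 246 and 72. The difference exceeded both SDs for 188 of the higher and 163 of the lower genes. Within the cells with Xist detected, which leaves 2 N1-CKO cells, 627 and 572 genes passed, and without WT cell 3, the array with the highest Gapdh ratio of the 15, 333 and 241. Without N1-CKO cell 3 the lower genes numbered 425. With a floor of 100 the counts were 154 and 77, and with the probe sets of a gene averaged 169 and 108.

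The highest difference belonged to Meg3, an imprinted long noncoding RNA that is abundant in neurons. It was at 14.71, 13.11, 14.90 and 15.24 in N1-CKO cells 1, 2, 3 and 11, against 4.64 to 15.49 (median 5.82) in WT, where 2 of 11 cells held it. The difference of 7.51 exceeded the SDs of 0.94 and 3.89. Of 10 other Meg3 probe sets, 2 gave 6.85 and 7.27. Another gave 4.67 and was detected in 3 of 4 N1-CKO and 4 of 11 WT cells. Opposite in sign were 2 (−0.54 and −0.74), each detected in at most 1 cell. Meg3 was also detected in 8 of the 9 Mki67-negative N1-CKO cells, so that 12 of 13 N1-CKO and 3 of 13 WT cells held it.

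Next came Efr3b (6.87), which anchors a lipid kinase at the plasma membrane, at 11.79, 13.08, 13.52 and 12.61 against 4.64 to 11.23 in WT. Rundc3a (6.27) and the vesicle protein Rph3a (6.13) are expressed in neurons, and the former was detected in 4 of 4 N1-CKO and 2 of 11 WT cells. Rph3a was detected in 3 of 4 N1-CKO and 0 of 11 WT cells, so N1-CKO cells alone brought it into the comparison. Wdr70 was at 11.08 to 11.93 in N1-CKO cells and detected in 0 of 11 WT cells, at least 2.26-fold higher. The splicing-related Sugp2 (6.11), the kinase Nlk (6.05), Arhgef2 (5.95), the Ras regulator Rasa4 (5.85) and the proteasome activator subunit Psme1 (5.73) complete the 12 highest with Syp and Nlgn2. Of these 12, Meg3, Rundc3a, Nlk, Nlgn2 and Psme1 were detected in at least 5 of the 9 Mki67-negative N1-CKO cells.

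In 7 genes (0.129% of those tested) every N1-CKO cell lay above every WT cell: Rasa4, Eif1a, Efr3b, Arhgef2, Wdr70, Sox4 and Prdx2. Of these, Rasa4, Eif1a and Wdr70 reached the detection threshold in N1-CKO cells alone, so only those cells brought them into the comparison. How many genes would separate under another grouping of the same cells was not counted, so these genes are described by their values only. Rasa4 was at 10.06, 12.52, 12.97 and 12.13 against at most 9.35, at least 3.05-fold higher. It was detected in 3 of 4 N1-CKO and 0 of 11 WT cells, as N1-CKO cell 1 lay below its array's threshold of 11.08. Eif1a, a translation initiation factor, was at 12.68, 8.88, 12.53 and 11.26 against at most 8.21, at least 2.03-fold higher. Its level in N1-CKO cell 2 lay below that array's threshold of 11.04. Sox4, a factor of differentiating neurons, was bright in both groups, at 13.75, 13.82, 13.80 and 14.70 against 9.68 to 13.54 (median 13.09). Its 7 other probe sets had the same sign. Prdx2, a peroxidase, was at 14.57, 14.70, 15.15 and 15.67 against 13.34 to 14.46. The differences of Sox4 (1.57) and Prdx2 (1.11) exceeded both SDs.

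**Figure D5:**
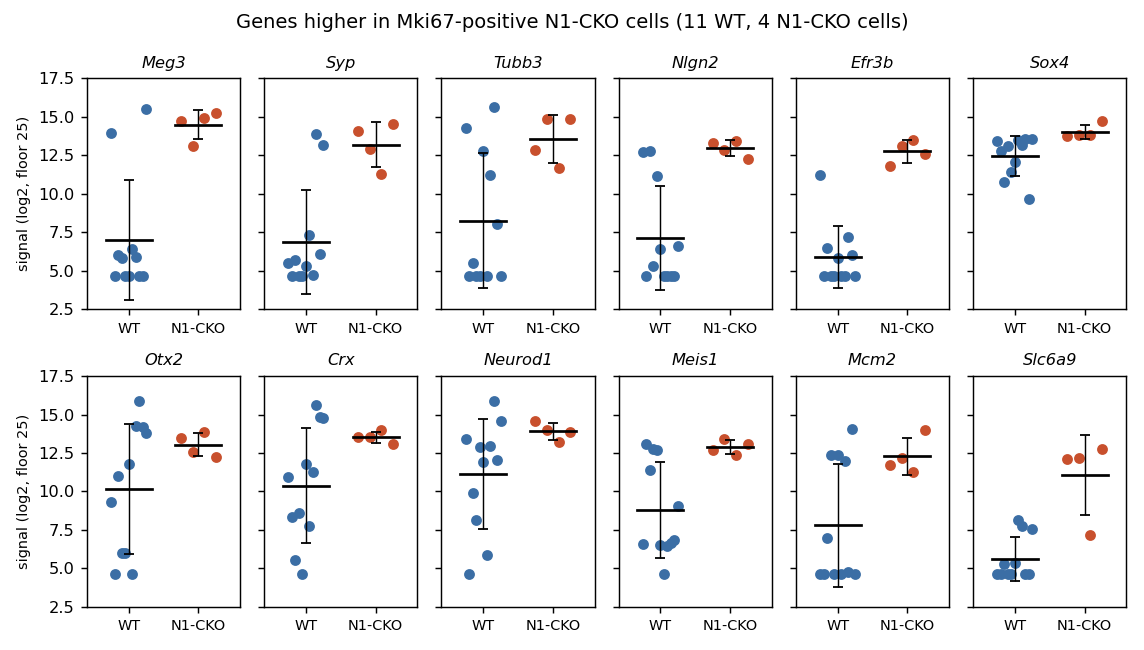
Log2 signal (floor 25) of 12 genes higher in N1-CKO, with 1 point per Mki67-positive cell, 11 WT (blue) and 4 N1-CKO (orange); lines are means and bars 1 SD over cells. N1-CKO points of Meg3, Syp and Tubb3 lie among the few highest WT cells, those of Efr3b and Sox4 lie above every WT cell, and those of Otx2, Crx and Neurod1 lie inside the WT range.

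Among the lower genes, 2 (0.0369%) had every N1-CKO cell below every WT cell. Kdm3a, a histone demethylase, was at 9.27, 10.07, 8.48 and 9.77 in N1-CKO cells 1, 2, 3 and 11 against 10.52 to 12.95 (median 11.89) in WT. Its difference was −2.49, with SDs of 0.69 and 0.78. Col2a1, a fibrillar collagen gene, was at 5.78, 4.81, 7.41 and 6.13 against 7.74 to 14.76 (median 11.73). It was detected in 0 of 4 and 9 of 11 cells and was at least 2.35-fold lower, so WT cells alone brought it into the comparison. Among Mki67-negative cells, 7 of 9 N1-CKO cells held Kdm3a and 3 of 9 held Col2a1.

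The lowest difference was that of Tox2, an HMG-box factor, at 4.64, 4.64, 10.96 and 4.64 against 4.64 to 14.97 (median 13.64) in WT, a difference of −6.05. It was detected in 1 of 4 and 9 of 11 cells. The nucleoporin gene Nupl1 (−5.69) showed the same arrangement, with N1-CKO cell 3 at 11.48 and the others at the floor. Odr4 (−5.62), the tRNA-modifying enzyme Trit1 (−5.32), the channel Trpm3 (−5.24), Coa5 (−5.10), the lamin B receptor Lbr (−5.08), the centromere factor Mis18a (−4.97) and Uaca (−4.95) were each detected in 0 of 4 N1-CKO cells and in 6 to 8 of 11 WT cells. Tsn had −5.34, but 2 of its other probe sets gave 1.95 and 4.28, so no direction is given for it. Of the 260 lower genes, 182 were detected in 0 of the 4 N1-CKO cells. Of the 335 higher genes, 14 were detected in 0 of the 11 WT cells. Absence from all of 4 cells is met more easily than absence from all of 11, so these counts are not set against each other. The 182 passed the filter of at least 3 cells through WT cells alone, and the 14 through N1-CKO cells alone. The share over all genes tested was not counted, so neither count is read as a result about these genes.

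RNA regulators of neurons and imprinted genes did not move together, with 4 of 13 higher and 9 lower (median −0.81). Without N1-CKO cell 11 the median was 0.05 with 7 of 13 higher, and on high 18S arrays 0.03 with 7 of 13 higher. Besides Meg3, Mir124a-1hg, the host transcript of a neuronal microRNA, had 3.35, which was −0.23 on high 18S arrays and 5.64 on low ones. The splicing factors Srrm4 and Celf3 had 2.76 and 2.68. Immediate early and stress genes had a median of 0.38, which was −0.27 on low 18S arrays and 0.11 without N1-CKO cell 1, with Jun at 1.81 (another probe set opposite), Fos at 1.66, Ddit3 at 0.99 and the chaperone Hspa5 at −1.68. Apoptosis and p53 genes had a median of −0.26, which was 0.31 on low 18S arrays, 1.07 in cells with Xist detected, −0.80 without N1-CKO cell 1 and 0.24 without N1-CKO cell 11, so its sign is not settled. Among them were Casp8 at −2.49, Bbc3 at 2.14, Mdm2 at 1.44 and Bcl2l1 at −1.10. Of the stress list and the apoptosis list, 0 of 8 genes each passed 3 in either direction. Of all genes tested, 6.19% were higher past 3 and 4.8% lower, so lists this short say little. Of the RNA regulator and imprinted list, 2 of 13 (15.4%) were higher past 3 and 0 lower.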

How the data were processed

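Signals were deposited as MAS5 array intensity on a linear scale, per the submitters' processing notes (no version or settings given in the sources used here). Every array's trimmed mean (2% from each end) was 500, so total RNA per cell cannot be read. Per the labels' protocols, cDNA was primed with oligo dT and amplified by PCR, which favours transcript 3′ ends. Of 45101 probe sets, 64 were controls, 932 carried several gene symbols and were left out, and 9160 stay unnamed here; the platform annotation named 18193 genes, of which 18145 had a symbol in the RefSeq gene table.

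Genes detected in at least 3 of the 15 cells were compared, and list members in at least 2. Of the 377 listed genes, 354 were measured. Named genes are the 12 highest and 12 lowest differences, non-overlapping genes, all detected Notch, G1 cyclin and exit members and up to 4 of each other list, with other names given as chosen after their values were seen. The members and lists were chosen with earlier results of these data known. Of the 119 named genes, 30 have other probe sets of opposite sign, 44 of 148 in all. Of 60 genes whose promoters were looked up in RefSeq (GRCm38.p6), 49 matched. Code ran in Python 3.11.15 with pandas 2.3.3, numpy 2.4.6 and scipy 1.17.1 and was checked on simulated data. Other floors, scalings, probe set summaries, thresholds and cell choices were tried. The cells with Xist detected were added as an alternative after seeing the data.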

Additional observations from a re-analysis of the deposited data

Results flagged for a closer look

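With 4 N1-CKO cells, a single cell can stand apart from the other 3. Of 119 genes and 23 list counts looked at, 36 had a highest or lowest N1-CKO cell whose gap to the nearest of the others, divided by the range, exceeded Dixon's 95% critical value. Chance flags about 1 in 20 groups of continuous values, a rate that does not hold for values tied at the floor. Many of these are 3 cells at the floor of 4.64 with 1 cell above it, which is flagged however small its gap. The counts per cell include such flags. N1-CKO cells 11, 3, 1 and 2 stood apart 15, 11, 8 and 2 times. Values are log2 signals.

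N1-CKO cell 11 was the lowest for Notch1 (4.64), Rb1 (4.92), the outer segment gene Rom1 (5.06) and the neuronal gene Aplp1 (8.04), and held 2 members of the FGF and ERK list where the other cells held 4 each. It was the highest for Psme1 (14.97), Sox4 (14.70), Irx5 (9.30), Id4 (8.01), Id2 (7.08), Lbr (6.84), Casp8 (6.58), Cdk6 (6.14), Mis18a (6.12) and Odr4 (4.99). Of these, Psme1 and Sox4 are the ones in which all 4 cells were bright.

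N1-CKO cell 3 was the highest for Slbp (13.13), Nupl1 (11.48), Tox2 (10.96), the FGF-induced factors Etv5 (9.55) and Etv4 (9.38), Nfia (7.04), Eif2s3y (6.66), Uty (6.00) and Pcp2 (5.74), and held 9 Müller glial genes against 6 in each other cell. It was the lowest for the glycine transporter Slc6a9 (7.16). The levels of Eif2s3y and Uty in it stayed below its detection threshold.

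N1-CKO cell 1 was the lowest for the vesicle gene Rph3a, the axonal gene Stmn2 and Dtx4, all at 4.64. It was the highest for Mfng (13.15), Zfp36l2 (11.36), Trit1 (5.09) and Hey1 (4.94), and held 1 astrocyte marker against 0. N1-CKO cell 2 was the highest for the neurofilament gene Nefm (11.03) and for Coa5 (5.27).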

How the results depend on the processing

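No paired analysis was possible because cell numbers name single cells and no test was made. Of 221 comparisons of main counts and medians with an alternative other than leaving a cell out, 183 stayed within their limits (1.5 times for a count, the spread between cells for a median) and 38 moved. Part of the 183 could not move. Mki67 has 1 probe set, so accepting any Mki67 probe set repeats the main setting. The numbers of Mki67-positive cells are fixed under other floors, scalings, probe set summaries and detection thresholds. The 183 is therefore no measure of how stable the results are. All lists kept their sign under quantile normalization. The genes higher and lower past 3 numbered 335 and 260, and 154 and 77 with a floor of 100, 169 and 108 with probe sets averaged, 777 and 653 with medians over cells, 163 and 131 with detection at the 95th percentile, 834 and 724 with a difference of 2, and 627 and 572 in cells with Xist detected. With no floor 487 were lower, and on low 18S arrays 593. The 7 genes wholly above and 2 wholly below WT became 3 above with probe sets averaged or detection at the 95th percentile and 11 above with a Gapdh ratio of at most 3. Those below became 5 with no floor, 4 after quantile normalization and 7 with Mki67 at the 95th percentile. Above and below, they became 2 and 0 with Mki67 at the 80th percentile, 17 and 9 in cells with at least 8 mitotic genes, 192 and 81 on high 18S arrays, 134 and 122 on low ones, and 63 and 36 in cells with Xist detected, settings that mostly leave fewer N1-CKO cells to overlap. The Mki67-positive N1-CKO and WT cells were 2 and 4 on high 18S arrays and 2 and 7 on low ones, and 2 N1-CKO cells had Xist detected. The neuronal median was 1.40 with probe sets averaged, the ligand and proneural median −1.88 on high 18S arrays and the progenitor median 0.81 in cells with Xist detected.

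Among lists with a median of at least 1 and genes with a difference of at least 3 in size, direction turned for the ganglion cell list (−0.25 with detection at the 80th percentile and −0.25 with no filter on detection), the rod and cone list (−0.088 with no filter on detection and −0.25 on high 18S arrays), Nusap1 (1.32), Dusp4 (−0.20) and Mir124a-1hg (−0.23) on high 18S arrays, and Xist (0.41) on low ones; the cause was not tested. Of list medians nearer 0, those that turned within an 18S set were, on high 18S arrays Müller glia (0.42) and RNA regulators (0.03) and, on low ones, cell cycle exit (−0.26), ligands and proneural factors (0.96), stress (−0.27) and apoptosis (0.31). Leaving out each cell in turn gave 3 to 4 N1-CKO and 10 to 11 WT cells, 299 to 437 higher and 241 to 425 lower genes, and 7 to 25 genes wholly above and 2 to 13 wholly below WT. Median differences ranged from −2.34 to −0.69 for G1/S, −2.39 to −0.68 for G2/M, 2.42 to 3.62 for neuronal genes, −0.56 to 1.19 for ligands and proneural factors, −2.23 to −1.53 for Notch effectors, 1.98 to 2.81 for photoreceptor factors and −0.60 to 0.37 for progenitor genes.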
